A study of Mus musculus with 8 samples.

Results

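The mouse mammary carcinoma cell lines pB3 and Epcam hi, of different mouse models, were compared by mRNA sequencing, with 2 libraries of each line among the 8 libraries and 4 lines of the series. pB3 was derived from a tumour of an MMTV-PyMT mouse. Epcam hi was derived from a tumour of the MMTV-PyMT-Snail-IRES-YFP reporter model, whose name joins Snail to a yellow fluorescent protein. All lines were on the C57BL/6 background and were grown as adherent monolayers in DMEM/F12 with 5% adult bovine serum, antibiotics and non-essential amino acids, with no other treatment named. The remaining lines, 687g (of the reporter model) and pB2 (of the MMTV-PyMT model), entered the same fit and serve as a second pair in which a line high in Vim is set against a line low in Vim.

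The MMTV promoter drives the polyoma virus middle T oncogene (PyMT) in mammary epithelium, so all 4 lines share that oncogene by origin. Each line is a single culture line, and whether a difference between pB3 and Epcam hi belongs to the line, to the mouse model or to the epithelial or mesenchymal state cannot be told apart. The labels do not say whether replicates were separate cultures, so p-values reflect no more than the spread among these libraries, which may be technical.

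The epithelial-mesenchymal transition (EMT) is a change of state in which epithelial cells loosen adherens junctions, tight junctions and desmosomes and take up vimentin filaments and a migratory shape. Transcription factors of the Snail, Zeb, Twist and Prrx families bring it about, and Snail and Zeb factors do so by binding E-box motifs in the promoters of epithelial genes. In carcinoma the transition is often partial, with epithelial and mesenchymal genes expressed in the same line.

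Libraries held 15631003 and 15916987 counts in pB3 and 13701156 and 18515857 in Epcam hi. Across 13289 genes, Pearson's r between replicates was 0.995 in pB3 and 0.975 in Epcam hi, and 1.42% of genes stood over 2-fold apart between the pB3 libraries against 9.66% between the Epcam hi libraries. The first principal component (53.4% of the variance) placed the pB3 libraries at 45.0 and 44.2 and the Epcam hi libraries at 53.1 and 50.3, while the second (26.5%) placed the pB3 libraries at 6.77 and 5.52 and the Epcam hi libraries at -115 and -102. Levels below are counts scaled to a common total (CPM) on TMM-scaled library totals. A fold change is given on the log2 scale as pB3 over Epcam hi ± the standard error of the fit (n = 2 libraries per line), and a gene is said to have risen, fallen or been called where edgeR's quasi-likelihood test gave a Benjamini-Hochberg adjusted p under 0.05 over the 15890 genes tested.

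Epcam, a surface adhesion protein of epithelial cells, had 278 and 264 CPM in pB3, against 1410 and 1537 CPM in Epcam hi. Cdh1, which encodes E-cadherin of the adherens junction, had 51.8 and 51.0 CPM in pB3 and 458 and 520 CPM in Epcam hi. Vim, the intermediate filament of mesenchymal cells, had 2310 and 2432 CPM in pB3 and 21.3 and 32.5 CPM in Epcam hi. The lines overlapped in none of these 3 genes: pB3 kept both epithelial genes at a lower level and was high in Vim. The log2 fold changes were -2.44 ± 0.17 for Epcam, -3.25 ± 0.24 for Cdh1 and 6.46 ± 0.29 for Vim, and no p is given since these genes chose the comparison. In 687g, a line also high in Vim at 3388 and 2335 CPM, Epcam was at 3.85 and 3.70 CPM and Cdh1 at 1.90 and 0.739 CPM, below their levels in pB3.

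**Figure D1:**
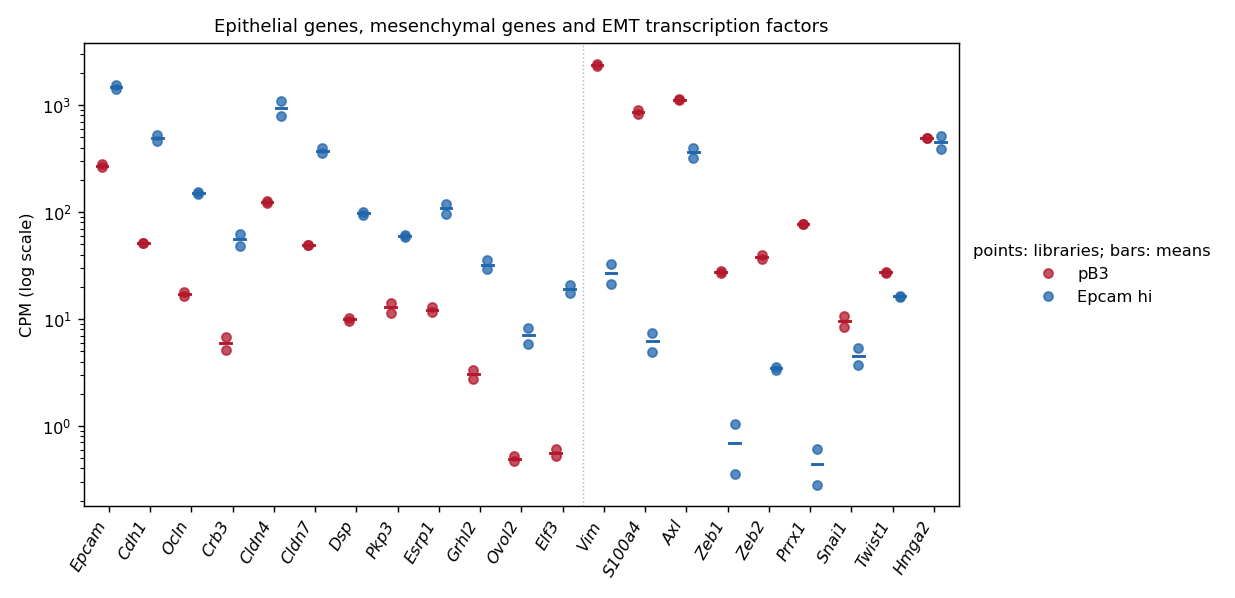
Level of 12 epithelial genes (left of the dotted line) and 9 mesenchymal genes and EMT transcription factors (right) in pB3 (red) and Epcam hi (blue), as CPM on a log axis; points are libraries and bars the means of 2. Epcam and Cdh1 remain above 50 CPM in pB3, Ovol2 and Elf3 lie under 1 CPM there, and Hmga2 has overlapping libraries.

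Over all genes, 4666 of 15890 were called (29.4%), 2352 of them higher in pB3 (14.8%) and 2314 lower (14.6%), with a median log2 fold change of -0.04. Against a threshold of a 2-fold change the same test called 1909 genes (12%). Without pB3 replicate 1 or 2 the count was 2893 or 2936, and without Epcam hi replicate 1 or 2 it was 4257 or 5472. Counts for the gene lists below are to be read against these shares. The fit shares its estimate of spread among all lines, although the Epcam hi libraries agreed less closely than the pB3 libraries. Leaving out a library also lowers the power of the test, so a call lost that way need not mean a changed fold.

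Genes of epithelial junctions and of the epithelial programme fell in pB3. Of 81 such genes in 5 lists, 76 passed the filter on low counts; 52 of these fell, 2 rose and 22 were not called, with a median log2 fold change of -2.35. Without Epcam and Cdh1, which chose the comparison, 50 of 74 fell (median -2.31). Among the 52, Epcam and Cdh1 included, the fold ran between 1.57 and 114, with a median of 7.58. No pB3 library reached an Epcam hi library in any of them, a gap that the call itself favours. Most were reduced rather than silent: 44 of the 52 kept a mean of at least 1 CPM in pB3. In 42 of the 52, the mean in 687g lay lower still. These counts were not taken over all genes that fell in pB3, so they are not shown to be particular to epithelial genes. In bulk libraries, fewer cells of a type and less RNA per cell cannot be told apart.

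Of 14 adherens junction and surface adhesion genes tested of 15, 6 fell and 8 were not called (median -0.55). Epcam and Cdh1, which chose the comparison, are among the 6, and without them 4 of 12 fell (median -0.47). Nectin4, an immunoglobulin-like adhesion molecule, had 2.49 and 2.01 CPM in pB3 and 54.5 and 38.7 CPM in Epcam hi (-4.37 ± 0.27, adjusted p = 4.34e-08). The catenin genes that tie cadherins to actin were not called: Ctnnb1 had 500 and 551 CPM in pB3 and 626 and 569 CPM in Epcam hi (-0.19 ± 0.19), and Ctnna1 stood at -0.13 ± 0.26.

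Tight junction and polarity genes fell nearly throughout: of 21 tested of 22, 17 fell, none rose and 4 were not called (median -2.37). Ocln, which encodes the strand protein occludin, had 16.5 and 17.8 CPM in pB3 and 153 and 147 CPM in Epcam hi (-3.12 ± 0.20, adjusted p = 5.79e-08). Crb3, a polarity protein of the apical membrane, had 5.11 and 6.80 CPM in pB3 and 48.3 and 62.5 CPM in Epcam hi (-3.22 ± 0.25, adjusted p = 7.18e-07). The claudin genes Cldn3, Cldn4 and Cldn7, which encode further strand proteins, fell by 1.97, 2.92 and 2.92 on the log2 scale. The scaffold gene Tjp1, whose product is not restricted to epithelia, had 116 and 109 CPM in pB3 and 125 and 104 CPM in Epcam hi, with overlapping libraries (-0.03 ± 0.25). Cldn8 had 0 counts in both lines and stayed in the test through pB2.

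Among desmosome genes, 5 fell, 1 rose and 3 were not called of 9 tested of 11 (median -0.91). Dsp, the plaque protein desmoplakin that anchors keratin filaments, had 10.2 and 9.59 CPM in pB3 and 92.9 and 101 CPM in Epcam hi (-3.29 ± 0.25, adjusted p = 2.46e-07). The plakophilin genes Pkp3 and Pkp1 moved in opposite directions. Pkp3 fell by 2.22 ± 0.20 on the log2 scale (adjusted p = 1.52e-06), and Pkp1 had 43.8 and 46.0 CPM in pB3 and 18.4 and 23.8 CPM in Epcam hi (1.09 ± 0.29, adjusted p = 0.0121). The call of Pkp1 ended without Epcam hi replicate 1 (0.92, adjusted p = 0.0592), and without Epcam hi replicate 2 the list held 2 genes called higher.

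Epithelial surface proteases and vesicle trafficking genes showed the highest share of calls, with 13 of 14 lower and 1 not called (median -2.78). Prss8, the membrane-anchored protease prostasin, had 1.28 and 1.62 CPM in pB3 and 25.6 and 20.9 CPM in Epcam hi (-3.99 ± 0.27, adjusted p = 9.68e-08). Tspan1, a tetraspanin, had 0.672 and 0.972 CPM in pB3 and 36.0 and 22.1 CPM in Epcam hi (-5.12 ± 0.37, adjusted p = 1.76e-07). Neither gene's lines overlapped.

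Regulators of epithelial transcription and splicing fell in 11 of 18 tested of 19, with 1 higher and 6 not called (median -3.16). Esrp1, which directs epithelial splice forms, had 12.8 and 11.6 CPM in pB3 and 96.8 and 119 CPM in Epcam hi (-3.15 ± 0.21, adjusted p = 9.58e-08). Grhl2, a grainyhead factor that activates junction genes, fell by 3.40 ± 0.25 on the log2 scale (adjusted p = 2.32e-07), in a stretch of chromosome 15 where the 50 neighbouring genes tested had a median of -0.58. Ovol2, a repressor of Zeb1, had 0.471 and 0.518 CPM in pB3 and 5.84 and 8.27 CPM in Epcam hi (-3.82 ± 0.46, adjusted p = 4.08e-05). Elf3, an epithelial ETS factor, had 0.605 and 0.518 CPM in pB3 and 20.96 and 17.3 CPM in Epcam hi (-5.07 ± 0.34, adjusted p = 1.70e-07). Gata3, a luminal lineage factor, was the member that rose, with 37.4 and 37.3 CPM in pB3 and 11.8 and 13.7 CPM in Epcam hi (1.54 ± 0.24, adjusted p = 2.45e-04), while the luminal pioneer factor gene Foxa1 fell by 3.64 ± 0.32 on the log2 scale (adjusted p = 1.32e-06).

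The E-box bound by Snail and Zeb factors was counted in the promoters of these lists, as the letters CACCTG or CAGGTG, which are each other's reverse complement, in windows of 250 bases before and 50 after each start in RefSeq (GRCm38.p6). Of 17 tight junction and polarity genes with a window, 12 held the motif (70.6%), against 22.6% of all 27025 genes in the table. The share was lower among adherens junction and surface adhesion genes (3 of 10, 30%) and among transcription and splicing regulators (4 of 10, 40%). It was 5 of 9 surface protease and vesicle trafficking genes (55.6%), and the only desmosome gene with a window held the motif. Over the 5 epithelial lists it was 25 of 47 genes (53.2%), and the rest of the 81 listed genes had no window. Genes with several starts have several windows, and by window the shares were 47.6% of 63 for these lists and 20.2% of 32851 for the table. Of genes called lower in pB3, 30.5% held it, against 19.8% of those called higher and 21% of those tested. A match is a description of letters and not a bound site. The windows of 4 genes that fell follow, picked after their values were seen from a larger number of list genes with more than 1 E-box. The E-boxes are in capitals. Epcam lies at chr17:87635729-87636028 on the plus strand, Cldn7 at chr11:69965171-69965470 on the plus strand, Crb3 at chr17:57061951-57062250 on the plus strand and Rab25, a vesicle GTPase of epithelial cells, at chr3:88548230-88548529 on the minus strand.
Epcam: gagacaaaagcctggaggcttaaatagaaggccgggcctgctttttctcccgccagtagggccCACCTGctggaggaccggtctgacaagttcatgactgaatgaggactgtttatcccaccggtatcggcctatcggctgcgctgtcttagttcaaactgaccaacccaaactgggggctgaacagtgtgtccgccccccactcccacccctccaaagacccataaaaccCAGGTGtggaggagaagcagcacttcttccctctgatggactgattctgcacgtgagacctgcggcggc
Cldn7: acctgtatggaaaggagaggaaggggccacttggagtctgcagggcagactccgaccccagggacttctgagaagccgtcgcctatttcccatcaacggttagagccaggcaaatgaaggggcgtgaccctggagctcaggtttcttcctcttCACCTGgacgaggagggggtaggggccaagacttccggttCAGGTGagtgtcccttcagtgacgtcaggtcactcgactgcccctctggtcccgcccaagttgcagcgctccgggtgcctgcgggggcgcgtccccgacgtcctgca
Crb3: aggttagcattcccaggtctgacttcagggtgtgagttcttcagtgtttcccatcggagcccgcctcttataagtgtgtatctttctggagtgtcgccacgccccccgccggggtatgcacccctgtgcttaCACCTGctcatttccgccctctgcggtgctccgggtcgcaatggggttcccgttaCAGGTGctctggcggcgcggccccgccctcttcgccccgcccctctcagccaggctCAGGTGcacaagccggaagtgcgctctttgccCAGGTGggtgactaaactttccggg
Rab25: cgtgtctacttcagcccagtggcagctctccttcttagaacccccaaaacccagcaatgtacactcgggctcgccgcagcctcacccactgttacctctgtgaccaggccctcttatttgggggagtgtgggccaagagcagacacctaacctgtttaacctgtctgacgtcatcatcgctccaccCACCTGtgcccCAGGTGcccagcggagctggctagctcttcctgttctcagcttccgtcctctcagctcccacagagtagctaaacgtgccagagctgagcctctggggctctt

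In the Epcam window the motif begins at -187 and -19 from the start, in the Cldn7 window at -97 and -57 and in the Rab25 window at -64 and -53, while the Crb3 window holds 4. Rab25 had 13.7 and 13.9 CPM in pB3 and 174.9 and 174.1 CPM in Epcam hi (-3.66 ± 0.20, adjusted p = 1.5e-08), with no overlap.

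EMT transcription factors rose in part. Of 17 tested of 17, 8 rose, 3 fell and 6 were not called (median 0.52). Fewer were called in each direction without pB3 replicate 1 or 2. Zeb1 and Zeb2, zinc finger repressors of E-cadherin, were among the members that parted the lines. Zeb1 had 27.1 and 28.0 CPM in pB3 and 0.352 and 1.04 CPM in Epcam hi (5.23 ± 0.34, adjusted p = 7.03e-08; 6.27 without Epcam hi replicate 2). Zeb2 had 39.5 and 36.3 CPM in pB3 and 3.59 and 3.34 CPM in Epcam hi (3.45 ± 0.24, adjusted p = 1.07e-07).

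Prrx1, a mesenchymal homeobox factor, had 77.5 and 77.9 CPM in pB3 and 0.281 and 0.602 CPM in Epcam hi. Its log2 fold change was 7.38 ± 0.29 (adjusted p = 2.38e-09), and 8.08 without Epcam hi replicate 2. Twist2, a basic helix-loop-helix factor, had 17.95 and 18.7 CPM in pB3 and 0 and 0.219 CPM, 4 counts in all, in Epcam hi (7.14 ± 0.46, adjusted p = 5.94e-08; 6.34 and 11.16 without Epcam hi replicates 1 and 2).

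The Snail genes differed little. Snai1, which encodes Snail, had 8.40 and 10.8 CPM in pB3 and 5.35 and 3.72 CPM in Epcam hi (1.09 ± 0.31, adjusted p = 0.0162), and that call ended without pB3 replicate 2 (adjusted p = 0.126) or Epcam hi replicate 2 (adjusted p = 0.0733). Epcam hi, the line of the Snail reporter model, held the lower values. Snai2 had 2.56 and 2.72 CPM in pB3 and 2.18 and 1.70 CPM in Epcam hi and was not called (0.45 ± 0.44). Twist1 rose by 0.74 ± 0.19 (adjusted p = 0.00785). Without pB3 replicate 1 or 2 it was no longer called, though its fold change was 0.75 or 0.74. Tbx3 fell by 1.19 ± 0.25 on the log2 scale (adjusted p = 0.00268), and Sox9 by 0.61 ± 0.19 (adjusted p = 0.0266), and the call of Sox9 ended without pB3 replicate 1 or 2 or Epcam hi replicate 1 (adjusted p = 0.174, 0.170 and 0.132). Hmga2, a chromatin protein of embryonic and carcinoma cells, had 490 and 488 CPM in pB3 and 389 and 509 CPM in Epcam hi and was not called (0.12 ± 0.18).

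Mesenchymal cytoskeleton and adhesion genes did not move as a block: of 14 tested of 19, 5 rose, 1 fell and 8 were not called (median 0.23). Vim, which chose the comparison, is among the 5, and without it 4 of 13 rose (median 0.11). S100a4, a calcium-binding protein of motile cells, had 898 and 821 CPM in pB3 and 7.39 and 4.93 CPM in Epcam hi (7.13 ± 0.26, adjusted p = 1.35e-09). Axl, a receptor tyrosine kinase, had 1108 and 1129 CPM in pB3 and 399 and 323 CPM in Epcam hi (1.63 ± 0.24, adjusted p = 1.47e-04), and Cdh2, which encodes N-cadherin, rose by 1.13 ± 0.25 (adjusted p = 0.00378). Ncam1, a neural adhesion molecule, had 56.3 and 52.5 CPM in pB3 and 0.492 and 0.931 CPM in Epcam hi (6.20 ± 0.35, adjusted p = 2.09e-08). Cd44, the hyaluronan receptor, was the member that fell, with 1348 and 1381 CPM in pB3 and 1863 and 2186 CPM in Epcam hi (-0.57 ± 0.18, adjusted p = 0.0326). The call of Cd44 ended without pB3 replicate 1 or 2 or Epcam hi replicate 2 (adjusted p = 0.218, 0.185 and 0.123). With Cd44 not called, no member was called lower in those fits. In 687g against pB2, 12 of the same 14 genes rose, Vim included, and none fell, where 25.6% of all genes rose and 26.7% fell in that pair.

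Keratin genes, the filaments of epithelial cells, went both ways, with 3 higher, 4 lower and 5 not called of 12 tested of 15 (median -0.32). Krt19 had 79.5 and 86.6 CPM in pB3 and 2.67 and 2.52 CPM in Epcam hi (5.00 ± 0.22, adjusted p = 4.11e-09). Krt7 had 735 and 788 CPM in pB3 and 3670 and 2780 CPM in Epcam hi (-2.08 ± 0.21, adjusted p = 3.75e-06). Krt14, a basal keratin, rose by 2.53 ± 0.22 (adjusted p = 1.03e-06) at 14.99 and 14.5 CPM in pB3 and 2.74 and 2.35 CPM in Epcam hi. The simple epithelial keratin Krt8 had 473 and 486 CPM in pB3 and 408 and 536 CPM in Epcam hi, with overlapping libraries (0.02 ± 0.19, adjusted p = 0.948), and its small difference had the other sign under scaling by total counts (-0.05) and without Epcam hi replicate 1 (-0.16). Keratin genes have near-identical relatives and pseudogenes, and how reads that fit several genes were counted is not given in the sources used here.

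Markers of other cell types were read for the same libraries. Of 14 fibroblast markers 8 were tested, of which 5 rose and 1 fell, and their summed level was 216 and 234 CPM in pB3 against 469 and 350 CPM in Epcam hi, most of it from Gsn, the actin-severing protein that fell. Pdpn, the glycoprotein podoplanin, had 27.4 and 26.6 CPM in pB3 and 3 counts in Epcam hi, a ratio of 292 with a 95% exact counting interval of 99.6 to 1420. Col1a1, a defining collagen of fibroblasts, had 0.403 and 0.777 CPM in pB3 and 0.211 and 0.219 CPM in Epcam hi, and Col1a2, Col3a1, Dcn, Lum and Dpt did not pass the filter on low counts. Pericyte and muscle markers summed to 117 and 119 CPM in pB3 and 15.5 and 7.72 CPM in Epcam hi. In pB3, Rgs5 made up 99.2 and 99.1 CPM of these sums. Of 15 leukocyte markers 2 were tested, and the list summed to 1.34 and 1.81 CPM in pB3 and 36.4 and 14.6 CPM in Epcam hi, where Cd68, a lysosomal glycoprotein, made up 35.5 and 13.4 CPM and Cd3d, C1qa, C1qb, Nkg7 and Ncr1 had 0 counts in both lines. Endothelial markers summed to 19.4 and 20.2 CPM in pB3 and 12.7 and 10.6 CPM in Epcam hi, with Flt1 higher in pB3, and adipocyte markers summed to at most 1.23 CPM in any of these libraries. Their part in the other results was not tested.

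**Figure D2:**
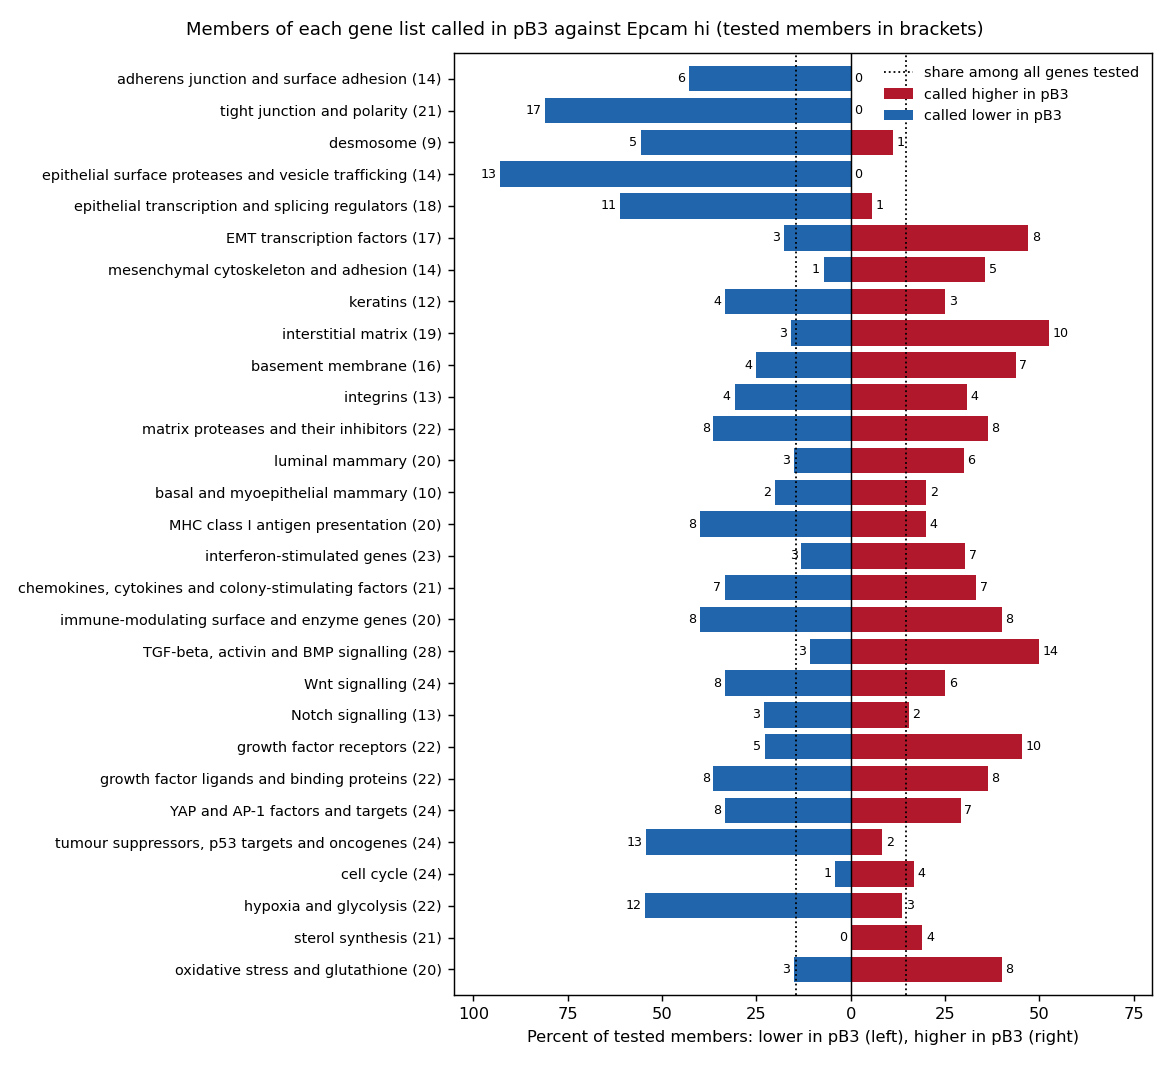
For each gene list (tested members in brackets), the percent of tested members called lower in pB3 (blue, left) and higher in pB3 (red, right), with the counts beside the bars; dotted lines mark 14.6% lower and 14.8% higher among all 15890 genes tested. The epithelial lists lie almost wholly on the left, and the interstitial matrix and TGF-beta lists mostly on the right. The cell cycle and sterol lists lie near the dotted line on the right and short of that on the left.

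Genes of the interstitial matrix, the fibrous material between cells, rose more often than they fell: of 19 tested of 26, 10 rose, 3 fell and 6 were not called (median 3.05). Col5a1, a fibril-forming collagen, had 60.5 and 63.8 CPM in pB3 and 0.985 and 0.766 CPM in Epcam hi (6.15 ± 0.28, adjusted p = 4.42e-09). Spp1, the secreted phosphoprotein osteopontin, had 5119 and 5393 CPM in pB3 and 400 and 348 CPM in Epcam hi (3.81 ± 0.20, adjusted p = 1.15e-08). Loxl1, a crosslinking enzyme, rose by 4.61 ± 0.37 (adjusted p = 1.07e-06). Fn1, which encodes fibronectin and is often read with Vim, had 2260 and 2259 CPM in pB3 and 2794 and 2953 CPM in Epcam hi and was not called (-0.35 ± 0.32, adjusted p = 0.459). The proteoglycan gene Vcan fell by 3.31 ± 0.38 on the log2 scale (adjusted p = 1.67e-05; by 3.97 without pB3 replicate 1). Thbs1, thrombospondin, fell by 0.96 ± 0.29 (adjusted p = 0.0218), a call lost without pB3 replicate 1 or 2 or Epcam hi replicate 1 (adjusted p = 0.0801, 0.0994 and 0.0619).

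The basement membrane list, with 16 tested of 18, gave 7 higher, 4 lower and 5 not called (median 0.67), and its members parted by molecule. Lama3 and Lamb3, which encode laminin chains of the epithelial basement membrane, fell. Lama3 had 18.9 and 16.5 CPM in pB3 and 498 and 592 CPM in Epcam hi (-4.95 ± 0.27, adjusted p = 1.53e-08). Lamb3 had 24.2 and 22.0 CPM in pB3 and 450 and 490 CPM in Epcam hi (-4.35 ± 0.20, adjusted p = 4.42e-09). Of other laminin chain genes, Lamc1 rose by 1.04 ± 0.26 (adjusted p = 0.00713), and Lamb1 was not called (0.49 ± 0.25). Hspg2, the proteoglycan perlecan, had 192 and 196 CPM in pB3 and 20.5 and 11.5 CPM in Epcam hi (3.61 ± 0.38, adjusted p = 6.48e-06). The collagen chain gene Col4a6 had 11.8 and 11.01 CPM in pB3 and 0.281 and 0.0547 CPM in Epcam hi (6.12 ± 0.60, adjusted p = 5.60e-06; 7.51 and 5.31 without Epcam hi replicates 1 and 2), whereas the main chains Col4a1 and Col4a2 were not called (-0.01 ± 0.24 and 0.24 ± 0.22).

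Integrins, the receptors for these matrices, divided evenly, with 4 higher, 4 lower and 5 not called of 13 tested of 15 (median 0.23). Itgb3, of the vitronectin receptor, had 11.8 and 12.9 CPM in pB3 and 0.985 and 1.15 CPM in Epcam hi (3.52 ± 0.28, adjusted p = 4.63e-07), and Itga5, of the fibronectin receptor, rose by 1.14 ± 0.20 (adjusted p = 6.02e-04). Itgb6, an epithelial integrin that activates latent TGF-beta, had 1.88 and 2.14 CPM in pB3 and 20.8 and 19.5 CPM in Epcam hi (-3.32 ± 0.29, adjusted p = 1.22e-06). Itga2, of the collagen receptor, fell by 1.34 ± 0.21 (adjusted p = 3.01e-04).

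Matrix proteases and their inhibitors also went both ways, 8 higher, 8 lower and 6 not called of 22 tested of 24 (median -0.11). Mmp3 and Mmp10, which encode the related stromelysins, moved in opposite directions. Mmp3 had 371 and 400 CPM in pB3 and 28.9 and 24.2 CPM in Epcam hi (3.86 ± 0.32, adjusted p = 7.76e-07). Mmp10 had 56.0 and 61.4 CPM in pB3 and 663 and 240 CPM in Epcam hi (-2.94 ± 0.43, adjusted p = 1.36e-04; -2.03 without Epcam hi replicate 1). Timp3, a matrix-bound inhibitor, rose by 4.65 ± 0.34 (adjusted p = 2.09e-07), and Adam8, a sheddase, fell by 3.31 ± 0.24 (adjusted p = 2.32e-07).

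Mammary lineage genes gave no single direction. Of 20 luminal genes tested of 22, 6 rose, 3 fell and 11 were not called (median 0.01), with 1 lower without pB3 replicate 1 or 2 or Epcam hi replicate 1. The milk protein gene Csn3 had 190 and 205 CPM in pB3 and 6.61 and 12.4 CPM in Epcam hi (4.36 ± 0.37, adjusted p = 8.84e-07). Of 10 basal and myoepithelial genes tested of 15, 2 rose, 2 fell and 6 were not called (median -0.06), with 1 lower without pB3 replicate 2 or Epcam hi replicate 1. Id4, an inhibitor of basic helix-loop-helix factors in basal cells, rose by 1.82 ± 0.21 (adjusted p = 1.86e-05), and Procr, a receptor that marks mammary progenitor cells, had 46.6 and 47.0 CPM in pB3 and 438 and 290 CPM in Epcam hi (-2.96 ± 0.21, adjusted p = 1.94e-07).

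Growth factor receptor genes rose more often than they fell, with 10 higher, 5 lower and 7 not called of 22 tested of 26 (median 0.41). The genes called lower numbered 3 without pB3 replicate 1 or Epcam hi replicate 2 and 2 without pB3 replicate 2. Fgfr1, a fibroblast growth factor receptor, had 204 and 201 CPM in pB3 and 3.80 and 3.67 CPM in Epcam hi (5.76 ± 0.25, adjusted p = 3.60e-09). Its ligand gene Fgf2 had 29.9 and 27.7 CPM in pB3 and 1.13 and 0.985 CPM in Epcam hi (4.77 ± 0.26, adjusted p = 1.52e-08), so both were high in the same line. Of the receptors for epidermal growth factor and its relatives, Erbb3 and Egfr fell, and Erbb2 had 27.6 and 24.9 CPM in pB3 and 29.9 and 36.2 CPM in Epcam hi and was not called (-0.33 ± 0.22). Erbb3 had 4.71 and 4.599 CPM in pB3 and 51.6 and 50.1 CPM in Epcam hi (-3.45 ± 0.22, adjusted p = 5.60e-08). Egfr had 46.1 and 44.8 CPM in pB3 and 104 and 70.0 CPM in Epcam hi (-0.93 ± 0.23, adjusted p = 0.007), a call lost without pB3 replicate 2 or Epcam hi replicate 1 (adjusted p = 0.0575 and 0.0665).

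Ligands and binding proteins of growth factors gave 8 higher, 8 lower and 6 not called of 22 tested of 27 (median -0.05), with 5 lower without pB3 replicate 1 or 2. Ereg, the EGFR ligand epiregulin, had 0.538 and 0.324 CPM in pB3 and 91.2 and 100 CPM in Epcam hi (-7.77 ± 0.34, adjusted p = 3.60e-09). The binding proteins of insulin-like growth factors Igfbp4 and Igfbp7 moved oppositely. Igfbp4 (chromosome 11, 99041244 to 99054392, GRCm38) had 2723 and 2844 CPM in pB3 and 4.43 and 3.89 CPM in Epcam hi (9.39 ± 0.27, adjusted p = 2.77e-10). Igfbp7 had 4.98 and 5.57 CPM in pB3 and 163 and 108 CPM in Epcam hi (-4.68 ± 0.25, adjusted p = 1.52e-08).

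**Figure D3:**
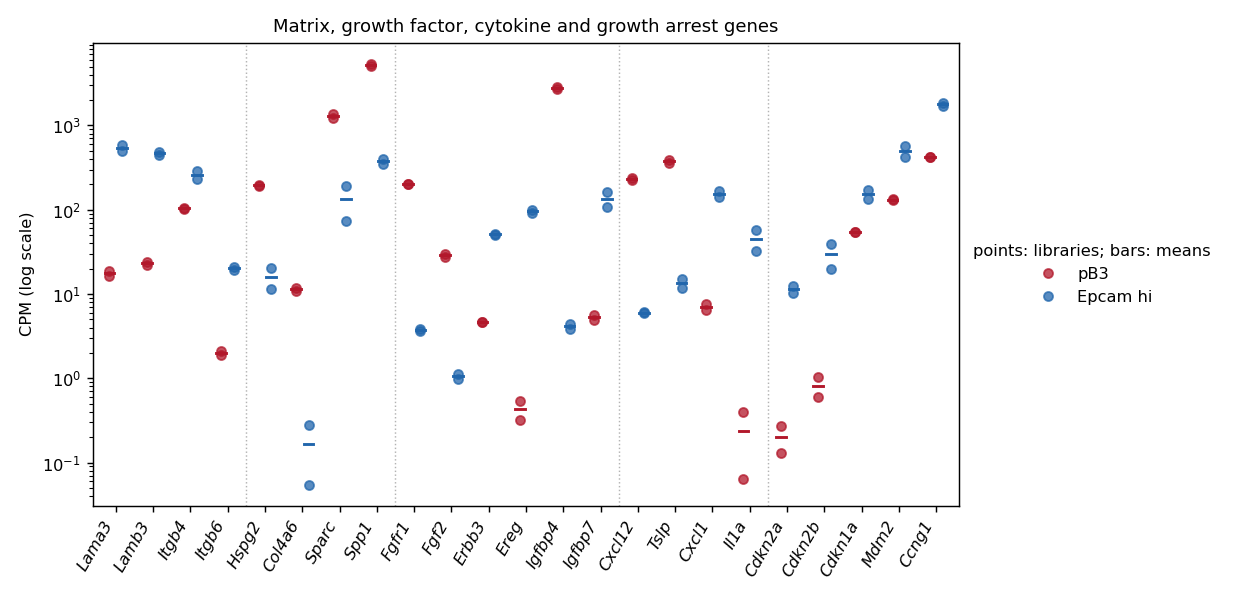
Level of 23 genes of laminin and integrins, other matrix, growth factor signalling, cytokines and growth arrest (sections between dotted lines) in pB3 (red) and Epcam hi (blue), as CPM on a log axis; points are libraries and bars the means of 2. Igfbp4, Fgfr1 and Cxcl12 lie higher in pB3, while Lama3, Lamb3, Ereg, Il1a and Cdkn2a lie higher in Epcam hi.

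In the TGF-beta, activin and BMP list, 14 of 28 rose, 3 fell and 11 were not called (median 0.66), with 1 lower without pB3 replicate 2. Id1, a target of BMP signalling, had 28.0 and 26.4 CPM in pB3 and 1.06 and 0.876 CPM in Epcam hi (4.82 ± 0.26, adjusted p = 1.50e-08), and the ligand gene Bmp2 rose by 3.35 ± 0.26 (adjusted p = 3.25e-07). Bmp7 fell by 1.56 ± 0.22 on the log2 scale (adjusted p = 1.08e-04). Inhba, an activin subunit, fell by 0.84 ± 0.19 (adjusted p = 0.00479), and that call ended without pB3 replicate 2 (adjusted p = 0.0682).

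Among 24 Wnt signalling genes tested of 30, 6 rose, 8 fell and 10 were not called (median 0.10), with 5 and 3 lower without pB3 replicates 1 and 2. Wnt5a, a ligand of the pathway that does not use beta-catenin, had 44.2 and 47.8 CPM in pB3 and 0.633 and 1.04 CPM in Epcam hi (5.74 ± 0.34, adjusted p = 3.49e-08). It lies in a stretch of chromosome 14 where the 50 genes around it had a median of 0.63. Ror2, a receptor of Wnt5a, had 10.2 and 11.3 CPM in pB3 and 1 count in Epcam hi, a ratio of 348 with a 95% exact counting interval of 62.1 to 13800. The related receptor gene Ror1 fell by 3.08 ± 0.37 (adjusted p = 2.57e-05). Wnt7a had 12.2 and 11.9 CPM in pB3 and 172 and 174 CPM in Epcam hi (-3.84 ± 0.22, adjusted p = 2.65e-08).

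The Notch list gave 2 higher, 3 lower and 8 not called of 13 tested of 15 (median 0.20). Without pB3 replicate 1 or 2, 0 or 1 of these were called higher and 1 lower, and without Epcam hi replicate 1 or 2, 0 or 1 were called higher. The ligand gene Jag2 had 1.75 and 1.36 CPM in pB3 and 27.6 and 36.8 CPM in Epcam hi (-4.37 ± 0.29, adjusted p = 7.46e-08). Notch1 fell by 0.87 ± 0.20 (adjusted p = 0.00466; 0.0519 and 0.0529 without pB3 replicates 1 and 2), and the target gene Nrarp rose by 0.54 ± 0.19 (adjusted p = 0.0469), a call lost under total counts (0.0817), with the replicate number as a block (0.0521) and without pB3 replicates 1 and 2 (0.193 and 0.233) or Epcam hi replicate 1 (0.242). Of 24 YAP and AP-1 factors and targets, 7 rose, 8 fell and 9 were not called (median -0.02), with 4 higher and 4 lower without pB3 replicate 1 and 4 lower without pB3 replicate 2. The YAP target gene Ccn1 fell by 1.37 ± 0.20 (adjusted p = 1.44e-04), with 158 and 151 CPM in pB3 and 385 and 413 CPM in Epcam hi. Ankrd1, another YAP target, rose by 1.17 ± 0.32 (adjusted p = 0.0122), a call lost in a fit of the 4 libraries alone (adjusted p = 0.0634), and by 1.96 without Epcam hi replicate 1. The AP-1 subunit gene Jun rose by 0.89 ± 0.21 (adjusted p = 0.0052), and Phlda1 fell by 1.41 ± 0.19 (adjusted p = 7.56e-05).

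The core chain genes of MHC class I, which presents peptides to T cells, fell in pB3. Of 20 antigen presentation genes tested of 20, 8 fell, 4 rose (7 without Epcam hi replicate 1) and 8 were not called (median -0.10). B2m, their shared light chain, had 303 and 309 CPM in pB3 and 864 and 712 CPM in Epcam hi (-1.37 ± 0.17, adjusted p = 3.60e-05). The heavy chain genes H2-K1 and H2-D1 fell by 1.34 ± 0.18 and 1.23 ± 0.20, though class I genes share near-identical stretches and reads may be split among them. Nlrc5, the transactivator of class I genes, had 4.84 and 5.05 CPM in pB3 and 37.3 and 41.7 CPM in Epcam hi (-2.996 ± 0.23, adjusted p = 2.85e-07), and Tap1, a peptide transporter, had 1.61 and 1.43 CPM in pB3 and 23.6 and 10.02 CPM in Epcam hi (-3.45 ± 0.48, adjusted p = 8.55e-05; -2.72 without Epcam hi replicate 1). The proteasome activator genes Psme1 and Psme2 rose by 1.89 ± 0.24 and 1.63 ± 0.22 (adjusted p = 4.61e-05 and 7.53e-05), in a stretch of chromosome 14 whose windows around them had medians of 0.67 and 0.62.

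Interferon-stimulated genes rose in 7, fell in 3 and were not called in 13 of 23 tested of 27 (median 0.59), with 1 lower without pB3 replicate 1 or 2 and 11 higher without Epcam hi replicate 1. Cgas, the sensor of cytosolic DNA, had 21.9 and 23.3 CPM in pB3 and 4.43 and 4.65 CPM in Epcam hi (2.31 ± 0.22, adjusted p = 2.83e-06). Usp18, which damps interferon signalling, had 1.01 and 1.36 CPM in pB3 and 37.5 and 28.6 CPM in Epcam hi (-4.79 ± 0.39, adjusted p = 5.35e-07). It lies in a stretch of chromosome 6 where the 50 genes around it had a median of -0.53. Irf1 rose by 0.82 ± 0.21 (adjusted p = 0.0082), which was lost without pB3 replicate 2 or Epcam hi replicate 2 (adjusted p = 0.101 and 0.0524).

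The lines held mRNA of different cytokines. Of 21 chemokine, cytokine and colony-stimulating factor genes tested of 25, 7 rose, 7 fell and 7 were not called (median -0.19). Cxcl12, a chemokine of stromal cells, had 228 and 238 CPM in pB3 and 6.05 and 6.02 CPM in Epcam hi (5.27 ± 0.22, adjusted p = 2.78e-09). The cytokine gene Tslp, active in allergic inflammation, had 391 and 362 CPM in pB3 and 15.3 and 11.8 CPM in Epcam hi (4.80 ± 0.28, adjusted p = 2.85e-08). Csf1, the macrophage growth factor, rose by 2.23 ± 0.31 (adjusted p = 8.34e-05). Epcam hi was instead high in Il1a, an alarm cytokine, with 0.403 and 0.0648 CPM in pB3 and 57.2 and 32.1 CPM in Epcam hi (-7.54 ± 0.50, adjusted p = 8.70e-08; -9.26 and -6.76 without pB3 replicates 1 and 2). Cxcl1, a chemokine of neutrophils, had 7.66 and 6.54 CPM in pB3 and 142 and 165 CPM in Epcam hi (-4.43 ± 0.79, adjusted p = 7.15e-04).

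Of 20 immune-modulating surface and enzyme genes tested of 24, 8 rose, 8 fell and 4 were not called (median -0.38). Cd47, the signal that restrains phagocytes, had 303 and 288 CPM in pB3 and 79.8 and 85.8 CPM in Epcam hi (1.83 ± 0.17, adjusted p = 1.62e-06). Lgals3, the lectin galectin 3, rose by 1.55 ± 0.18 (adjusted p = 2.01e-05), in a stretch of chromosome 14 with a median of 0.55. The checkpoint ligand gene Cd276 and the haem oxygenase gene Hmox1 fell by 1.24 ± 0.21 and 1.21 ± 0.21 (adjusted p = 4.95e-04 and 6.79e-04). Nt5e, whose enzyme makes extracellular adenosine, had 220 and 232 CPM in pB3 and 314 and 276 CPM in Epcam hi and was not called (-0.38 ± 0.19, adjusted p = 0.165).

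In the list of tumour suppressors, p53 targets and oncogenes, 13 of 24 tested of 25 fell, 2 rose (1 without pB3 replicate 1 or 2 or Epcam hi replicate 1) and 9 were not called (median -0.87). Cdkn2a (chromosome 4, 89274471 to 89294653, GRCm38), which encodes p16 and the p53-stabilising protein ARF, had 4 and 2 counts in pB3, or 0.269 and 0.130 CPM, and 12.4 and 10.3 CPM in Epcam hi (-5.79 ± 0.40, adjusted p = 1.07e-07). The neighbouring inhibitor gene Cdkn2b had 0.605 and 1.04 CPM in pB3 and 39.5 and 19.9 CPM in Epcam hi (-5.15 ± 0.39, adjusted p = 2.98e-07). Both lie in a stretch of chromosome 4 between 89050308 and 102607259 whose 51 genes tested had a median of -0.49. All 10 p53 target genes of the list fell, by between 1.50- and 4.22-fold; they were singled out after their values were seen. Ccng1, a cyclin induced by p53, had 422 and 417 CPM in pB3 and 1713 and 1832 CPM in Epcam hi (-2.08 ± 0.19, adjusted p = 1.70e-06). Cdkn1a, the cell cycle inhibitor p21, had 54.7 and 53.7 CPM in pB3 and 135 and 170 CPM in Epcam hi (-1.50 ± 0.22, adjusted p = 1.31e-04), and Mdm2, the ligase that degrades p53, fell by 1.92 ± 0.19 (adjusted p = 4.63e-06). The p53 gene itself, Trp53, had 96.9 and 99.0 CPM in pB3 and 66.6 and 86.5 CPM in Epcam hi and was not called (0.36 ± 0.20). Ccnd2, cyclin D2, rose by 2.84 ± 0.23 (adjusted p = 4.70e-07) although the window of chromosome 6 around it had a median of -0.53, and Stk11 rose by 0.64 ± 0.20 (adjusted p = 0.0258), a call lost without pB3 replicate 1 or 2 or Epcam hi replicate 1 (adjusted p = 0.131, 0.148 and 0.174). The oncogene Myc fell by 1.54 ± 0.20 (adjusted p = 6.03e-05).

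Among cell cycle genes, 4 rose, 1 fell and 19 were not called of 24 (median 0.31), with 2 higher without pB3 replicate 1 or 2 or Epcam hi replicate 1 and 7 without Epcam hi replicate 2. Tyms, thymidylate synthase, rose by 1.27 ± 0.29 (adjusted p = 0.00389; 1.96 without Epcam hi replicate 2), and Ccne1, cyclin E1, fell by 0.94 ± 0.19 (adjusted p = 0.00184). Hypoxia and glycolysis genes fell in 12 of 22, rose in 3 and were not called in 7 (median -0.60), with 6, 7 and 6 lower without pB3 replicate 1, pB3 replicate 2 and Epcam hi replicate 2. Car9, the surface carbonic anhydrase induced by hypoxia, had 10.1 and 10.8 CPM in pB3 and 120 and 157 CPM in Epcam hi (-3.73 ± 0.21, adjusted p = 1.84e-08). Pdk1, which diverts pyruvate away from mitochondria, had 39.1 and 44.3 CPM in pB3 and 146 and 147 CPM in Epcam hi (-1.81 ± 0.19, adjusted p = 4.92e-06), and Hk2, a hexokinase, fell by 1.65 ± 0.21 (adjusted p = 4.84e-05). Egln3, an oxygen sensor that hypoxia also induces, rose by 1.67 ± 0.18 (adjusted p = 8.42e-06). Adm, which encodes adrenomedullin, had 4.10 and 4.86 CPM in pB3 and 0 counts in Epcam hi, at least 48.5-fold higher against 3 counts over the Epcam hi line.

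Of 21 sterol synthesis genes, 4 rose (1 without pB3 replicate 1 or 2), none fell (1 without Epcam hi replicate 1) and 17 were not called (median 0.26). Insig1, a brake on sterol synthesis, rose by 1.24 ± 0.18 (adjusted p = 1.15e-04). Oxidative stress and glutathione genes rose in 8, fell in 3 and were not called in 9 of 20 tested of 21 (median 0.45), with 5 higher without pB3 replicate 2. Mgst1, a microsomal glutathione transferase, had 194 and 179 CPM in pB3 and 47.1 and 46.6 CPM in Epcam hi (1.99 ± 0.20, adjusted p = 4.48e-06). Gclc, the rate-limiting enzyme of glutathione synthesis, fell by 1.18 ± 0.18 (adjusted p = 2.07e-04).

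The genes with the largest folds follow, of which Rgs5 is also a pericyte marker. Nrep, a protein linked to nerve regeneration, had 92.0 and 96.8 CPM in pB3 and 0.211 and 0.219 CPM in Epcam hi (8.73 ± 0.30, adjusted p = 9.98e-10). Rgs5, a regulator of G protein signalling known from pericytes, had 99.2 and 99.1 CPM in pB3 and 0 and 0.547 CPM in Epcam hi (8.31 ± 0.52, adjusted p = 4.95e-08; 7.48 and 13.60 without Epcam hi replicates 1 and 2 and 9.36 with limma-voom). Heg1, a membrane protein of vessel development, rose by 8.24 ± 0.42 (adjusted p = 1.10e-08), and Pmp22, a myelin protein, had 29.9 and 28.8 CPM in pB3 against 2 counts in Epcam hi, a ratio of 477 (95% exact counting interval 132 to 3944).

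On the other side, Fabp2, a fatty acid-binding protein known from the intestine, had 1 count in pB3 and 20.4 and 30.1 CPM in Epcam hi. Trim54, a ligase known from muscle, had 1 count in pB3 and 28.1 and 10.5 CPM in Epcam hi. For these genes the ratios of Epcam hi over pB3 were 783 (95% exact counting interval 140 to 30960) and 551 (98.4 to 21780). Trim15 had 0 counts in pB3 and 21.7 and 11.3 CPM in Epcam hi, at least 167-fold lower against 3 counts over the pB3 line (adjusted p = 5.82e-06), though DESeq2 did not call it (adjusted p = 0.0925). Ppp2r2c, a subunit of protein phosphatase 2A, had 0.0672 and 0.583 CPM in pB3 and 47.6 and 61.7 CPM in Epcam hi (-7.34 ± 0.44, adjusted p = 3.66e-08; -6.53 and -9.51 without pB3 replicates 1 and 2). Tlx1, a homeobox factor, had 0.202 and 0.194 CPM in pB3 and 29.8 and 25.9 CPM in Epcam hi (-7.08 ± 0.31, adjusted p = 3.60e-09), and Col13a1, a membrane collagen, fell by 6.98 ± 0.53 (adjusted p = 2.73e-07; by 7.73 without pB3 replicate 2).

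The pair of 687g and pB2, which shares no library with pB3 and Epcam hi, also sets a line high in Vim against a line low in Vim. In it 8309 genes were called (52.3%), 4060 higher and 4249 lower in 687g; scaled by total counts the split was 3163 higher and 5289 lower, as the median over all genes then lay at -0.20 in place of 0.03. Of the 4666 genes called in pB3 against Epcam hi, 3085 were called in this pair as well, which is 66.1% of the calls between pB3 and Epcam hi and 37.1% of the calls between 687g and pB2. They moved the same way in 1660 genes (35.6% and 20%) and opposite ways in 1425 (30.5% and 17.2%). The difference between the pairs was itself called for 6800 genes (42.8%), among them 3036 of the 4666 (65.1%).

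Among genes that moved the same way, Prrx1 had 167 and 158 CPM in 687g and 0.0741 and 0.159 CPM in pB2 (10.27 ± 0.35, adjusted p = 9.95e-11). Nrn1, the neurite factor neuritin, had 65.6 and 68.9 CPM in pB3 and 0.281 and 0.0547 CPM in Epcam hi (8.69 ± 0.36, adjusted p = 2.78e-09; 10.07 and 7.87 without Epcam hi replicates 1 and 2), and 128 and 115 CPM in 687g against 0.148 and 0.053 CPM in pB2. The peptidase gene Cpq rose by 7.85 ± 0.27 in pB3 and by 9.496 ± 0.33 in 687g. Galnt15, a glycosyltransferase, rose by 7.57 ± 0.45 in pB3 (8.62 without Epcam hi replicate 2) and by 7.98 ± 0.40 in 687g.

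In the downward direction, Ptprf, the receptor phosphatase LAR, had 2.15 and 2.01 CPM in pB3 and 147 and 130 CPM in Epcam hi (-6.05 ± 0.28, adjusted p = 4.42e-09). In the other pair it had 2.29 and 1.28 CPM in 687g and 203 and 267 CPM in pB2 (-7.02 ± 0.29, adjusted p = 2.69e-10). The difference between the pairs was 0.96 ± 0.38 (adjusted p = 0.0575) and was not called. The PDZ scaffold gene Grip1, the tricellular junction gene Ildr1 and the Wnt inhibitor gene Nkd2 fell by 5.49, 5.33 and 5.31 in pB3 and by 8.05, 8.204 and 5.24 in 687g. For Nkd2 the fold change in pB3 was -6.42 and -4.67 without pB3 replicates 1 and 2. The 52 epithelial genes that fell in pB3, Epcam and Cdh1 included, fell in 687g in 41 cases and rose there in 5. Of all 2314 genes called lower in pB3, 744 fell in 687g and 724 rose there.

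**Figure D4:**
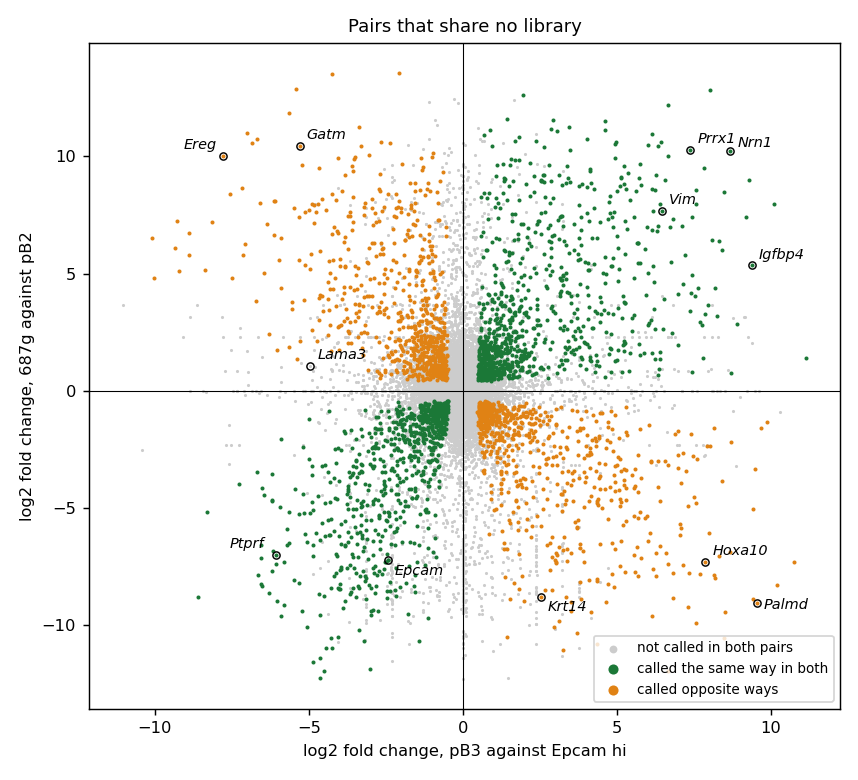
Each point is 1 of 15890 genes, placed by its log2 fold change in pB3 against Epcam hi (horizontal) and in 687g against pB2 (vertical); green points were called the same way in both pairs, orange points opposite ways, grey points not in both. The upper right and lower left hold 1660 same-way genes such as Prrx1 and Ptprf, and the other corners 1425 opposite genes such as Ereg and Palmd.

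Genes that moved opposite ways included some of the largest differences of the comparison. Palmd, a paralemmin family protein, had 47.1 and 56.6 CPM in pB3 and 2 counts in Epcam hi, but 1 count in 687g and 21.3 and 19.5 CPM in pB2. Ereg was low in pB3 and high in Epcam hi, yet had 135 and 134 CPM in 687g and 0 and 0.212 CPM in pB2. Gatm, an enzyme of creatine synthesis, had 6.66 and 7.77 CPM in pB3 and 329 and 240 CPM in Epcam hi, and 342 and 360 CPM in 687g and 0.296 and 0.212 CPM in pB2. Krt14 likewise rose in pB3 and had 0.502 and 0.403 CPM in 687g and 223 and 187 CPM in pB2. For these 4 genes, pB3 and pB2, the lines of the MMTV-PyMT model, lay on one side and Epcam hi and 687g, the lines of the reporter model, on the other, as the choice of genes that move opposite ways in these pairs favours.

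For the p53 targets the pairs also differed. None of the 10 rose in pB3, whereas 6 rose and 1 fell in 687g against pB2, and the difference between the pairs was called for 8 of them. Over all genes, 25.6% rose and 26.7% fell in 687g against pB2, and the difference was called for 42.8%. The 10 were singled out with their fall in pB3 seen, and that fall enters the difference, which favours its call. Cdkn2a was level in the other pair, with 40.3 and 30.1 CPM in 687g and 41.0 and 32.5 CPM in pB2 (-0.06 ± 0.22), so its difference between the pairs was called (difference -5.73 ± 0.47, adjusted p = 3.98e-07). Fgfr1 was high in 687g, with 268 and 195 CPM, and in pB2, with 166 and 215 CPM, so Epcam hi was the line that stood apart (difference 5.48 ± 0.31, adjusted p = 1.02e-08). Lama3 was at 1.84 and 0.672 CPM in 687g and 0.593 and 0.637 CPM in pB2, below both pB3 and Epcam hi.

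Chromosomes 6, 14 and 19 had the medians farthest from that of all genes. Chromosome 6 had a median log2 fold change of -0.38 over 828 genes tested, with 103 higher and 230 lower in pB3. Chromosome 14 had a median of 0.26 over 559 genes (170 higher, 47 lower), and chromosome 19 one of 0.35 over 494 genes (152 higher, 43 lower). The medians of the remaining chromosomes ran between -0.11 and 0.06. On chromosome 14, the 167 genes between 44330442 and 60141410 (GRCm38) had a median of 0.60, with 70 higher and 8 lower, and the 145 genes between 8431192 and 34588682 a median of 0.54, with 59 higher and 7 lower. On chromosome 19, 194 genes between 4164324 and 11819403 had a median of 0.50 (69 higher, 10 lower), and on chromosome 6, 130 genes between 6956004 and 39588769 had a median of -0.56 (11 higher, 52 lower). Of the 135 genes chosen for description by rule, 14 lay in the 12 stretches found on these and 3 further chromosomes (4, 7 and 15). For 7 of them the median of the 50 genes around them is given beside their values. Of the other 7, Cdkn2a, Cdkn2b, Ror1 and Jun lie in the stretch of chromosome 4 (median -0.49), Galnt15 in one of chromosome 14 (0.54), Cxcl12 in one of chromosome 6 (-0.42) and Cpq in one of chromosome 15 (-0.21). The direction of Jun, Cxcl12 and Cpq was opposite to that of their stretch. Of the list genes named beyond the rule, Hk2 lies in a stretch of chromosome 6 (-0.50) and Myc in one of chromosome 15 (-0.39). Whether the number of chromosome copies differs between the lines was not tested.

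**Figure D5:**
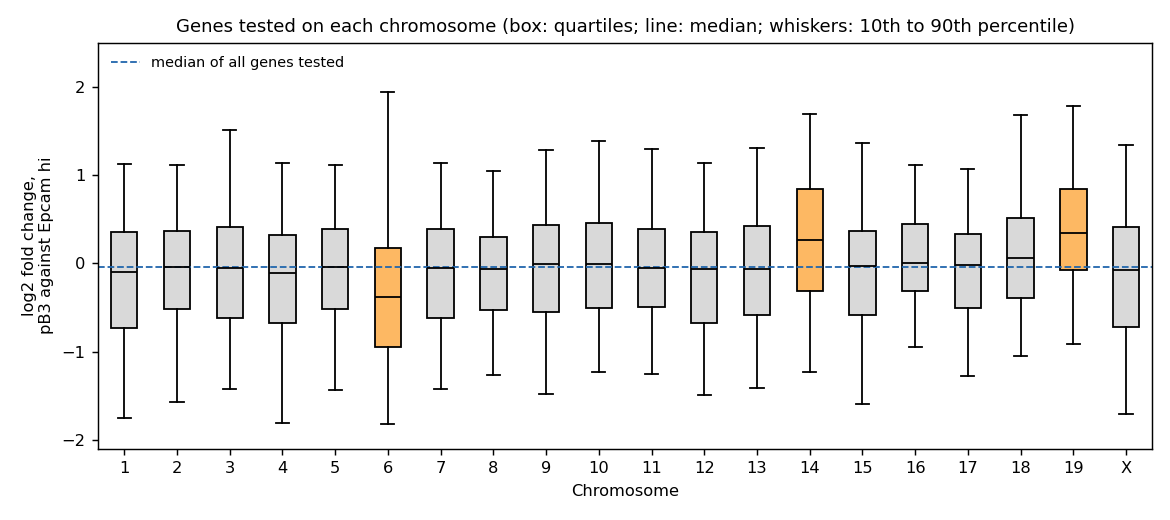
Log2 fold change in pB3 against Epcam hi of the genes tested on each chromosome; boxes span the quartiles, lines mark medians, whiskers reach the 10th and 90th percentiles, and the dashed line is the median of all genes tested. Chromosome 6 (median -0.38) lies below the dashed line, and chromosomes 14 (0.26) and 19 (0.35) above it (orange boxes).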

How the data were processed

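Messenger RNA of 8 libraries, 2 from each of the lines pB3, Epcam hi, 687g and pB2, was sequenced after poly-A selection, and libraries held between 12442730 and 19149916 counts. The authors deposited raw counts per gene: reads were aligned with STAR 2.6.1a and counted with featureCounts on the annotation of Ensembl 91 (GRCm38), per the submitters' processing notes. The files hold 53379 genes, of which 53274 were matched to a symbol. From these counts, edgeR 4.0.16 (R 4.3.3) was used with TMM scaling, its own filter on low counts (15890 genes kept) and the quasi-likelihood test with Benjamini-Hochberg adjustment over all genes kept, with a separate mean for each line. The fit had 4 residual degrees of freedom. DESeq2 1.42.0, limma 3.58.1 (voom), other scalings and filters, the replicate number as a block and leaving out each library were alternatives, and the script was tested on simulated data.

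The members and gene lists were chosen with earlier results of these data known. Genes were named by rule: a fixed panel; in each direction, the 8 called genes of greatest fold at 10 CPM or more; the 2 called members with the largest fold per list and direction; and 4 genes per direction that moved the same way, and 4 that moved opposite ways, in 687g against pB2. Other genes named, among them Cldn4, Cldn7, Axl, Cdh2, Ncam1, B2m, H2-K1, H2-D1, Nlrc5, the p53 targets, the members not called and the genes with promoters shown, were chosen after their values were seen. A gene with 0 counts in a line is given a bound against 3 counts over that line, and one with 1 to 3 counts a ratio with an exact 95% interval, which covers counting error only. The replicate numbers were not used to pair the samples in the main fit.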

Additional observations from a re-analysis of the deposited data

Results flagged for a closer look

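The difference between pB3 and Epcam hi minus that between 687g and pB2 was tested in the same edgeR fit, and 8 genes named for moving opposite ways are listed with it on the log2 scale. It was 18.6 for Palmd, 16.01 for Zfp275, 15.18 for Hoxa10 and 15.1 for Stac2, each higher in pB3 than in Epcam hi and lower in 687g than in pB2. It was -17.78 for Ereg, -17.43 for Slc47a1, -15.72 for Gatm and -14.18 for Slc4a8, each lower in pB3 than in Epcam hi and higher in 687g than in pB2. Several of these genes had 3 counts or fewer in a line, so the fitted sizes depend on the prior count and are not bounds. With 2 libraries per line, no single library was tested for standing apart from its group.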

How the results depend on the processing

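Of 135 named genes under 13 alternatives each, 1715 log2 fold changes kept their direction and side of the threshold, 38 kept direction but were no longer called, and 2 changed sign, both for Krt8, which was called in no fit (0.02; -0.0462 with total counts; between -0.158 without Epcam hi replicate 1 and 0.243 without Epcam hi replicate 2). Against a 2-fold threshold, calls numbered 1909 in pB3 against Epcam hi, 4183 in 687g against pB2 and 3768 for the difference of these. Leaving out 1 library at a time gave 2893 (without pB3 replicate 1) to 5472 (without Epcam hi replicate 2) calls in pB3 against Epcam hi, 6296 to 9079 in 687g against pB2, and 5279 to 7547 for the difference. Where a line is left with 1 library, that library is assumed to vary like the other lines. Total counts gave 2090 higher and 2597 lower calls, with a median of all genes lower by 0.08 on the log2 scale (a shift of -0.0757). Deviations of libraries of equal replicate number had a correlation of -0.06 in pB3 with Epcam hi. In the other pairs of lines it lay between -0.17 and 0.2, the highest in pB2 with Epcam hi. With the replicate number as a block 4541, 8160 and 6714 genes were called. Of the named genes, 2 lost their call under the block. Without a filter on low counts 5132 of 30254 genes were called. In pB3 and Epcam hi, 3 counts in a library lie at 0.164 to 0.211 CPM, and differences under that level were not detectable at this depth.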

Other observations

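Genes beside the Cdkn2a locus on chromosome 4 were read as well. Cdkn2a and Cdkn2b lie in a stretch whose 51 genes tested had a median of -0.49. Mtap, an enzyme of methionine salvage next to Cdkn2a, and Klhl9, an adaptor of protein degradation, fell in pB3 by 0.80 and 0.55 on the log2 scale against -5.79 for Cdkn2a and -5.15 for Cdkn2b; they were chosen after their values were seen. In 687g against pB2, 17 of 24 cell cycle genes and 3 of 22 hypoxia and glycolysis genes fell, with 14 hypoxia and glycolysis genes higher, where 26.7% of all genes fell and 25.6% rose. In pB3 against Epcam hi, 1 and 12 fell, where 14.6% of all genes fell.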
